A study of Mus musculus with 18 samples.

Results

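Hematopoietic stem cells from bone marrow, sorted as the lower side population because they retain the least Hoechst dye (SP-HSC), were compared between Old and Mid mice to ask which transcripts change over the second year of life. All animals were adult female wild-type C57BL/6 mice, with no transgene or treatment in any group. Mid mice were about 12 mo old and Old mice about 24 mo old by the labels, and every library came from the poly(A) RNA of a pool of several mice. The 3 Mid and 3 Old RNA-seq pools were chosen by their labels and make up 6 of the 18 samples of the series. The 3 Young RNA-seq pools (8 to 12 weeks) entered no test, and their levels are given as values only. The other 9 samples are methylation libraries, not analysed here. The sort enriches for stem cells by dye efflux and does not select a single cell type. The p-values measure the spread between pools of one age, and single mice within a pool cannot be told apart.

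Side population cells exclude Hoechst dye through ATP-binding cassette transporters, and the fraction with the strongest efflux holds most long-term repopulating stem cells. In mice this compartment expands with age, and its output shifts from lymphoid toward myeloid and platelet lineages. Aged stem cells are known for higher levels of adhesion molecules, such as P-selectin and von Willebrand factor, which are otherwise best known from platelets and endothelium.

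Over the second year, more of the genes called with all 6 pools rose than fell. Of 16040 genes tested, 98 passed an adjusted p of 0.05 (edgeR quasi-likelihood test, Benjamini-Hochberg), which is 0.611% of the genes tested. Among them 73 rose (0.455%) and 25 fell (0.156%). The log2 fold changes of the rising genes ran from 0.61 to 2.56, with a median of 0.93, and those of the falling genes from -0.62 to -10.36, with a median of -1.59. The largest falls belong to genes at 0 in Old, where a fitted value depends on the prior count and is no bound. The median over all genes tested was -0.01. In all 98 genes the 3 Old pools lay on one side of the 3 Mid pools. The test favours such genes, so this adds no evidence. Genes that did not pass, such as Sdpr and Cd34, were separated too, and the share over all genes is not given. The smallest adjusted p was 0.011, so the calls stand close to the threshold, while 3316 genes (20.7%) had an unadjusted p under 0.05.

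**Figure D1:**
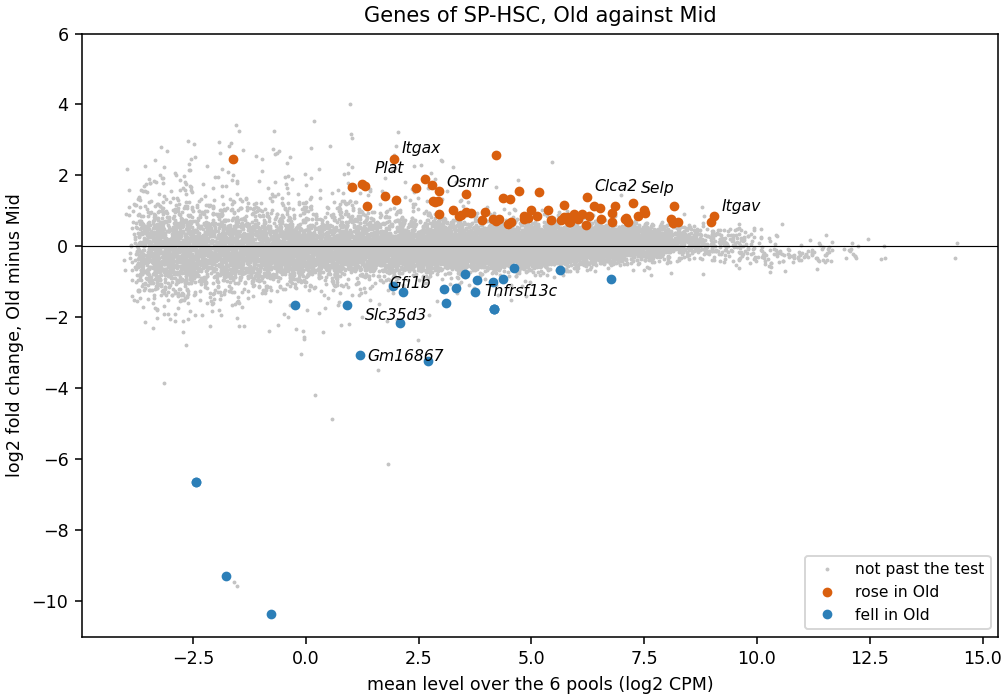
Each point is 1 of the 16040 genes tested, with the mean level over the 6 pools on the x axis (log2 CPM, counts scaled to library size) and the log2 fold change of Old minus Mid on the y axis. The 73 genes that rose are orange and the 25 that fell are blue, and the points at the bottom left are genes with no or almost no counts in Old.

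The deposited files pair no identifier with a gene name. Names given here are therefore inferences from transcript length and genome order, which reached 5184 of the genes tested (32.3%) and 39 of the 98 genes called, 32 rising and 7 falling. With only exact lengths kept, 28 of these 39 names would remain, and 28 with a posterior of at least 0.99. Positions are those of the matched gene in NCBIM37, the mouse build mm9.

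Total counts ran from 80747194 to 200461974 over the 6 pools, and the Old replicate 1 pool was both the shallowest and the one with a single sequencing file. Its mean correlation with the other pools (log2 CPM) was 0.977, against 0.984 to 0.985 for the others. The number of calls depended on the pools. Without Old replicate 1 it was 561, and these included all 98, whereas it was 41 without Old replicate 2, 7 without Old replicate 3, and 15, 6 and 12 without Mid replicates 1, 2 and 3. Rising and falling genes numbered 448 and 113, 28 and 13, and 5 and 2 without Old replicates 1, 2 and 3. Without Mid replicates 1, 2 and 3 they numbered 7 and 8, 2 and 4, and 6 and 6. Rising genes were thus no longer in excess when a Mid pool was left out. The model with all 9 RNA-seq samples called 10 genes, all among the 98, and the DESeq2 test called 1372 (8.55%), among them 96 of the 98.

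Selp, which encodes P-selectin, an adhesion receptor that binds leukocytes, lies on chromosome 1 from 166045395 to 166080157. Its name is less certain than most, since the matched length differed by 2 bp and the posterior was 0.95. It measured 94.2, 77.1 and 102 CPM (counts scaled to a common library size) in the Mid pools and 201, 216 and 224 CPM in the Old pools. The groups were far apart against their spread, at 91.3 ± 12.9 CPM in Mid and 214 ± 11.8 CPM in Old (SD, n = 3 each). The log2 fold change was 1.23 ± 0.13 (SE), with an adjusted p of 0.0159 by edgeR. Normalized together with all 9 samples, the Young pools had 7.1, 26.3 and 22.4 CPM of Selp, below every Mid pool. Its 2 transcripts, uc007dhz.1 and uc007dia.1, took 48.0% and 52.0% of the gene's counts in Mid and 52.9% and 47.1% in Old.

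Itgav, the alpha V integrin subunit that pairs with several beta subunits, was the most abundant named gene that rose. It lies on chromosome 2 from 83564554 to 83647073. Its level was 384, 393 and 361 CPM in Mid and 725, 642 and 678 CPM in Old, with a log2 fold change of 0.85 ± 0.11 (adjusted p = 0.0267, edgeR). Young pools measured 329, 387 and 368 CPM, so they overlapped the Mid pools and not the Old pools. Ncam2, a neural cell adhesion molecule of the immunoglobulin family, measured 3.24, 3.1 and 3.31 CPM in Mid and 8.45, 8.89 and 14.7 CPM in Old. The highest Old pool was replicate 3, and all Old pools exceeded all Mid pools. Itgax, the CD11c integrin subunit of dendritic and other myeloid cells, had the largest log2 fold change of the named genes that passed (2.47 ± 0.40, adjusted p = 0.0458, edgeR). Its 3 Mid pools had 0.888, 1.23 and 1.46 CPM, and its 3 Old pools 11.1, 4.48 and 4.37 CPM. Old replicate 1 stood out, and without it the log2 fold change of Itgax was 1.89 with an adjusted p of 0.0174.

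Of the 53 genes on a list of adhesion molecules, integrins and niche receptors, 20 had a name and were tested. Selp and Itgav rose, 2 of the 20, against 0.455% of all genes, and none fell. The median log2 fold change of the 20 was 0.09. Neither passed without Mid replicate 1, 2 or 3 or Old replicate 3, nor in the model with all 9 samples. Ncam2 and Itgax are not on that list. Members that did not pass included Vcam1 (0.69 ± 0.20, adjusted p = 0.127) and Tek, the angiopoietin receptor (0.29 ± 0.11, adjusted p = 0.192), both from the same edgeR fit.

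Osmr, the oncostatin M receptor subunit, lies on chromosome 15 from 6763577 to 6824313. It measured 4.17, 3.03 and 4.6 CPM in Mid and 11.9, 12.3 and 10.6 CPM in Old. Every Old pool lay above every Mid pool, and the log2 fold change was 1.56 ± 0.18 (adjusted p = 0.0189, edgeR). Young pools had 1.05, 1.21 and 0.672 CPM. Ghr, the growth hormone receptor, measured 17.9, 16.8 and 17.7 CPM in Mid and 27.2, 25.6 and 28.3 CPM in Old, a log2 fold change of 0.63 ± 0.11. Gpr183, a receptor for oxysterols that guides immune cell migration, measured 1.84, 2.42 and 3.69 CPM in Mid and 8.71, 8.69 and 7.35 CPM in Old. Bmpr2, the type II receptor for bone morphogenetic proteins, measured 68.9, 78.9 and 68.6 CPM in Mid and 136, 158 and 178 CPM in Old. Young pools had 56.2, 134 and 112 CPM of Bmpr2, 1 below and 2 above all Mid pools.

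Of the 78 genes on the list of cytokine and growth factor receptors and their signalling, 32 had a name. Osmr and Ghr rose, 2 of the 32, against 0.455% of all genes, none fell, and 30 did not pass, while 27 of the 32 had a log2 fold change above 0 and the median was 0.32. The members nearest to the threshold were 2 Wnt receptors and a coreceptor. Fzd4 had a log2 fold change of 0.58 ± 0.12 (adjusted p = 0.0703, edgeR), Lrp6 of 0.49 ± 0.11 (adjusted p = 0.0768) and Fzd6 of 0.43 ± 0.10 (adjusted p = 0.083). The number that rose was 4 without Old replicate 1, 1 without Old replicate 2, and 0 without any other pool or in the model with all 9 samples.

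The sequences around the starts of 2 of the genes that rose and 1 that fell are shown as examples. These 3 genes, P-selectin, a cytokine receptor and a lineage regulator, were picked by hand. Their promoters do not represent those of the other genes called. The promoters are 300 bases long (250 before the start and 50 after), from RefSeq on GRCm38.p6, a later build than that of the files. Selp is at chr1:164115014-164115313 on the plus strand, Osmr at chr15:6874264-6874563 on the minus strand and Gfi1b at chr2:28621933-28622232 on the minus strand. Capitals mark matches on either strand to 1 of 3 motifs. The AP-1 motif was searched as TGANTCA. The GATA motif was searched as AGATAA and the ETS motif as CCGGAA, a single form of each. Each motif was searched on its own, and overlaps between motifs were not removed.
Selp promoter: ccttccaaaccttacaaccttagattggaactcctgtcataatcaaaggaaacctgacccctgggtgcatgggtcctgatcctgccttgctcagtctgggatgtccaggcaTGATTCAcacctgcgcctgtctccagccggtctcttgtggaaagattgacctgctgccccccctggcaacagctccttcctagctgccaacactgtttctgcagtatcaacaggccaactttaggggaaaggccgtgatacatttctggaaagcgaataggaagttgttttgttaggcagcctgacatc
Osmr promoter: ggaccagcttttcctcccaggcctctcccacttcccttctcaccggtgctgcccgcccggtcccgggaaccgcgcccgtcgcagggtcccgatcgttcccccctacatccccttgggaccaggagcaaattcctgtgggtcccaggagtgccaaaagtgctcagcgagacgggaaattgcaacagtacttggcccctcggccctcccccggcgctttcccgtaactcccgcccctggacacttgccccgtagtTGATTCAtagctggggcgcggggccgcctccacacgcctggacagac
Gfi1b promoter: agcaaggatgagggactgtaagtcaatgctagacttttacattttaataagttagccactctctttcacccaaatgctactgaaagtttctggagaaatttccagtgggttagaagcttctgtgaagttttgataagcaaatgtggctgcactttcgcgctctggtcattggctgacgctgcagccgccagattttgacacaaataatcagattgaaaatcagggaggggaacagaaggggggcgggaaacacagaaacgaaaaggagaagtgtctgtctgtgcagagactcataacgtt
The Selp and Osmr windows each held 1 TGANTCA, and the Gfi1b window held none of the 3 patterns as searched. Other forms of these motifs were not searched, such as TGATAA, which the Gfi1b window holds. Of the 39 named genes called, 32 were matched to a promoter by symbol. TGANTCA occurred in 4 of 26 promoters of rising genes (15.4%), those of Itgax, Muc13, Osmr and Selp, in 0 of 6 of falling genes, and in 7.93% of all 27025 promoters. AGATAA occurred in 2 of the 26 (7.69%), against 11.4% of all promoters, and CCGGAA in 2 of the 26 (7.69%), against 15.2%. In the 6 promoters of falling genes, AGATAA occurred in 0 and CCGGAA in 1, that of Ebi3. These counts describe letters only.

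Fosl1, which encodes the AP-1 subunit Fra-1, rose. It measured 3.92, 3.24 and 5.25 CPM in Mid and 11.6, 10.3 and 8.27 CPM in Old, a log2 fold change of 1.28 ± 0.21 (adjusted p = 0.0487, edgeR). Young pools ranged from 1.5 to 6.59 CPM and overlapped the Mid pools. With 1 pool left out Fosl1 passed only without Old replicate 1. Fosl1 was the only member of the list of immediate early and AP-1 genes to pass, out of 16 named among 34 (against 0.455% of all genes rising), and the median of the 16 was 0.21. Other members had values on both sides of 0. Jund had -0.48 ± 0.16 (adjusted p = 0.16), Ier2 -0.37 ± 0.11 (adjusted p = 0.136), Egr2 0.46 ± 0.16 (adjusted p = 0.17) and Nr4a1 0.52 ± 0.21 (adjusted p = 0.22), by the same edgeR fit.

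The other named genes that rose most have diverse roles. Plat, the tissue plasminogen activator that starts fibrin breakdown, measured 3.14, 1.89 and 2.93 CPM in Mid and 9.71, 11.3 and 8.61 CPM in Old. Its log2 fold change was 1.90 ± 0.22 (adjusted p = 0.0189, edgeR), and Young pools had 0.339, 0.362 and 0.582 CPM. Clca2, a regulator of calcium-activated chloride current, had the smallest adjusted p of the named genes (0.011). It lies on chromosome 3 from 144459523 to 144482458, in a cluster of closely related copies between which reads can be split, so its identity is less certain. It measured 41.6, 37.9 and 43.7 CPM in Mid and 101, 101 and 124 CPM in Old, and 8.97, 13.8 and 13.7 CPM in Young. RefSeq lists this gene as Clca3a2. Clca2 was called in 5 of the 6 fits that left out 1 pool, the most of any gene with a name. Tdrd9, a helicase of the piRNA pathway in germ cells, measured 6.88, 6.7 and 5.02 CPM in Mid and 15, 21.7 and 15.5 CPM in Old. Young pools had 0.194, 0.687 and 0.527 CPM of Tdrd9. Grb7, an adaptor of receptor tyrosine kinases, had a log2 fold change of 1.76 ± 0.27. Mab21l3 and Mab21l2, of the mab-21 family, had log2 fold changes of 1.29 ± 0.14 and 1.26 ± 0.21.

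**Figure D2:**
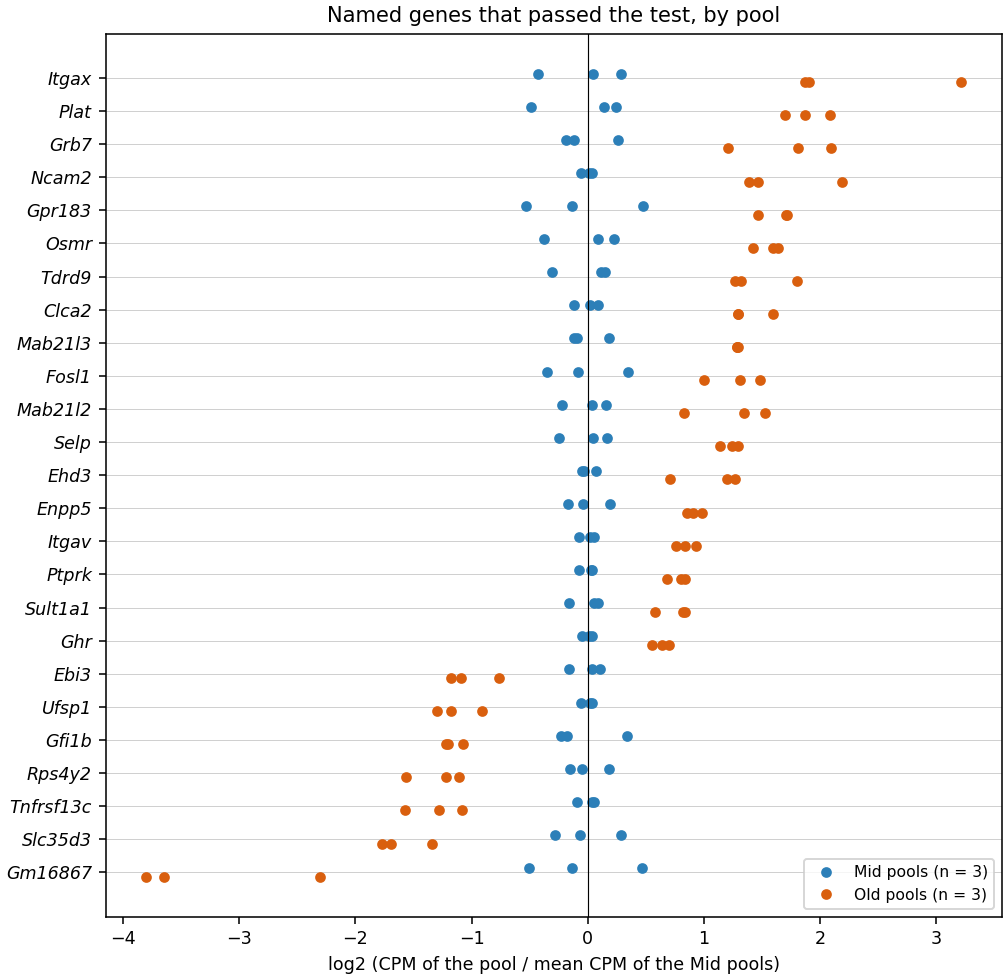
Each row is a named gene that passed the test, among the largest changes or on a gene list, and each point is a pool, as log2 of its CPM over the mean CPM of the 3 Mid pools. Blue points are Mid and orange points are Old, and in every row the 3 Old pools lie on one side of the 3 Mid pools.

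Several further genes that rose act on the cytoskeleton or membrane traffic, a grouping chosen after their values were seen. Gas2l3, which links actin to microtubules, measured 52.3, 53.3 and 52.1 CPM in Mid and 96.6, 120.3 and 128 CPM in Old. Clasp2, which stabilizes microtubule plus ends, measured 97.3, 104 and 98 CPM in Mid and 183, 166 and 176 CPM in Old. Myo1e, an unconventional myosin, rose by 1.03 ± 0.17 on the log2 scale, and Lpp, a focal adhesion protein, by 0.73 ± 0.10. Ehd3, a membrane-shaping ATPase of the endosomal system, measured 57.3, 62.5 and 58.1 CPM in Mid and 97.1, 136 and 143 CPM in Old (log2 fold change 1.08 ± 0.16, adjusted p = 0.0318, edgeR). Young pools had 14.8, 25.7 and 27.8 CPM of Ehd3. Outside that grouping, Smchd1, a chromatin protein of X chromosome inactivation, rose by 0.76 ± 0.11. Muc13, a transmembrane mucin, measured 216, 222 and 213 CPM in Mid and 364, 351 and 318 CPM in Old. The remaining named genes that rose were Fam169a, Trpc1, Cysltr2, Rnf125, Klhl4, Dyrk3 and Lnpep, with log2 fold changes from 0.69 to 0.97, and Enpp5, Ptprk and Sult1a1, described with the genes known to change with age.

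Gfi1b, a transcriptional repressor needed for erythroid and megakaryocyte development, fell. It lies on chromosome 2 from 28464970 to 28477502. It measured 11.8, 17.5 and 12.2 CPM in Mid and 6.57, 6.01 and 5.94 CPM in Old. The log2 fold change was -1.16 ± 0.18 (adjusted p = 0.036, edgeR), and Young pools, at 12.9, 11.5 and 11.4 CPM, overlapped the Mid pools. With 1 pool left out Gfi1b passed only without Old replicate 1, and its log2 fold change ran from -1.27 to -0.96. Both transcripts moved alike, since uc008iyu.2 held 69.0% of the counts in Mid and 68.5% in Old. Gfi1b was the only gene to pass of 19 named among 49 regulators of stem cell identity, against 0.156% of all genes falling, and the median of the 19 was -0.02. Cd34, whose product marks progenitors, measured 170.2, 223 and 169.9 CPM in Mid and 137, 85.8 and 130.2 CPM in Old. Its groups did not overlap, but it did not pass (-0.67 ± 0.20, adjusted p = 0.123). Gata2, Lmo2 and Runx1, transcription factors of stem cells, were present in every pool, with Lmo2 between 522 and 659.8 CPM, and did not pass either.

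Tnfrsf13c, the receptor for the B cell survival factor BAFF, measured 17.9, 19.7 and 19.5 CPM in Mid and 9.01, 6.4 and 7.85 CPM in Old. The log2 fold change was -1.30 ± 0.15 (adjusted p = 0.0189, edgeR). Young pools were higher still, at 31.2, 45.4 and 49.3 CPM. Ebi3, a subunit of the cytokines IL-27 and IL-35, measured 21.3, 25.6 and 24.3 CPM in Mid and 14, 11.2 and 10.5 CPM in Old. Slc35d3, a nucleotide sugar transporter of platelet dense granules, measured 12.4, 15.8 and 10.7 CPM in Mid and 5.13, 3.8 and 4.02 CPM in Old (-1.59 ± 0.19, adjusted p = 0.0202). Ufsp1, a protease of the ubiquitin-like protein UFM1, measured 5.03, 5.32 and 5.36 CPM in Mid and 2.13, 2.79 and 2.32 CPM in Old. Ufsp1 was also low in Young, at 0.808, 2.66 and 2.9 CPM, so its Mid pools were the highest. Rps4y2, a copy of ribosomal protein gene S4 on chromosome 6, fell by 1.28 on the log2 scale, and Gm16867, a predicted gene on chromosome 14, by 3.06. Reads of Rps4y2 may be shared with its close copy, which makes its identity uncertain.

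Among called genes with no name, the cluster of 7 transcripts led by uc008cdk.2 rose most. It measured 7.25, 4.12 and 4.84 CPM in Mid and 32.7, 29.3 and 33.8 CPM in Old, with a log2 fold change of 2.56 ± 0.21 and an adjusted p of 0.011 (edgeR). The next, uc007btw.1, stayed under 1 CPM in every pool. At the other end were 2 genes with counts in every Mid pool and 0 in every Old pool. For uc007hvh.1 the Mid pools held 130, 279 and 120 counts, and against a floor of 3 counts over the Old pools it was at least 161-fold lower in Old. For uc008ruq.1 the Mid pools held 57, 177 and 31 counts, and it was at least 80.8-fold lower. Young replicate 1 had 0.663 CPM of uc007hvh.1 and 1.7 CPM of uc008ruq.1, while Young replicates 2 and 3 were at 0. These bounds cover counting error only. Of the 98 genes called, 5 had the same counts as another cluster in all pools and are not separate measurements.

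Genes known to rise in stem cells with age were mostly higher in Old than in Mid. The list held 51 such genes, of which 16 had a name. Of these 16, 8 rose, against 0.455% of all genes, none fell, and the median log2 fold change was 0.76. The list was drawn from earlier knowledge of stem cell aging and chosen with earlier results of these data known. It is not independent evidence of direction or of the number that rose. The 8 were Gpr183, Osmr, Selp, Ehd3, Enpp5, Ptprk, Sult1a1 and Ghr. Enpp5, of the ectonucleotide pyrophosphatase family, measured 37.7, 41.2 and 48.6 CPM in Mid and 79.7, 77.1 and 84 CPM in Old. Ptprk, a receptor tyrosine phosphatase, measured 12.4, 13.4 and 13.4 CPM in Mid and 20.9, 23.4 and 22.8 CPM in Old. Sult1a1, a phenol sulfotransferase, measured 33.8, 39.2 and 40.2 CPM in Mid and 67.5, 56.3 and 66.8 CPM in Old. All 3 rose by 0.75 to 0.92 on the log2 scale.

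Other members of that list had high values but did not pass. Vwf, the von Willebrand factor, measured 300.2, 338 and 341 CPM in Mid and 349, 660.0 and 750.4 CPM in Old. Old replicate 1 was close to the Mid pools and the other two Old pools were well above it. The log2 fold change was 0.85 ± 0.25 (adjusted p = 0.127, edgeR). Without Old replicate 1 it was 1.11 with an adjusted p of 0.0151, and in the other 5 fits without 1 pool the adjusted p of Vwf lay between 0.201 and 0.411. Neo1, a receptor of netrins and repulsive guidance molecules, measured 80.7, 75 and 93.9 CPM in Mid and 118, 163 and 168 CPM in Old (0.85 ± 0.16, adjusted p = 0.0586), and with 1 pool left out it passed only without Old replicate 1 (0.99, adjusted p = 0.016). In that fit 12 of the 16 rose. Leaving out another pool gave 0 (without Mid replicate 1, Mid replicate 2 or Old replicate 3), 1 (without Mid replicate 3) or 2 (without Old replicate 2), and the model with all 9 samples gave 0. In each of these fits 14 or 15 of the 16 lay above 0.

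Sdpr, which encodes a caveolar coat protein (cavin-2), was 1 of 4 named genes among 14 drawn from the methylation part of the study, a list chosen on these mice and no independent evidence of direction. It measured 51.6, 55.7 and 49.0 CPM in Mid and 72.3, 73.7 and 73.2 CPM in Old. The groups did not overlap, yet the log2 fold change of 0.49 ± 0.10 had an adjusted p of 0.0703 (edgeR), and from 0.04 (without Old replicate 1, the only fit of the 6 in which it passed) to 0.327 with 1 pool left out. Young pools had 13.4, 19.8 and 19.7 CPM. Kiss1r had 0.62 ± 0.20 (adjusted p = 0.147), Nav2 0.48 ± 0.25 (adjusted p = 0.32) and Trim37 0.03 ± 0.14 (adjusted p = 0.916), so none of the 4 passed in edgeR, where 2 had an unadjusted p under 0.05, while DESeq2 called 2 (20.7% and 8.55% of all genes). Of the 4 named genes on the caveolae list, Ehd3 rose, while Dnm2 (0.13 ± 0.15) and Pacsin2 (-0.03 ± 0.12) did not pass.

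**Figure D3:**
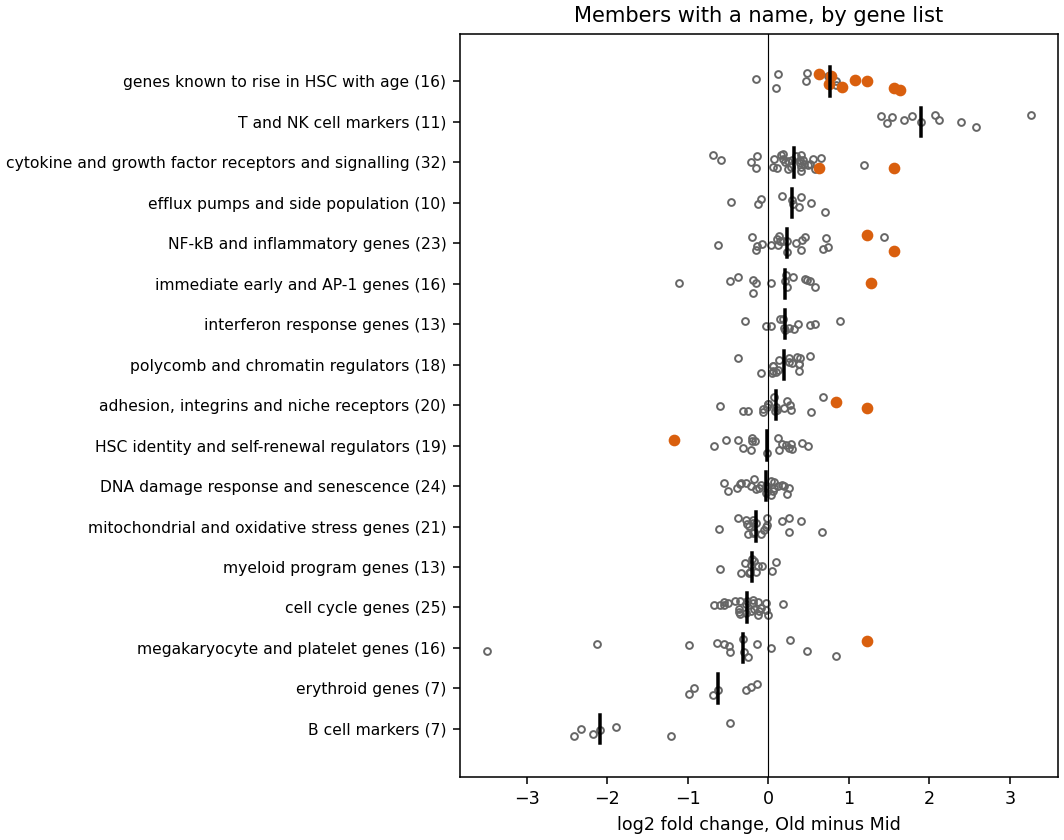
Each point is a list member with a name, at its log2 fold change of Old minus Mid on the x axis, for 17 of the 25 gene lists, with the number of members in brackets. Filled points passed an adjusted p of 0.05, open points did not, and the black bar is the median, which is highest for T and NK cell markers (1.90) and lowest for B cell markers (-2.08).

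None of the 10 named dye efflux and side population genes passed in edgeR, of 17 listed, while 5 had an unadjusted p under 0.05 and DESeq2 called 3, against 20.7% and 8.55% of all genes. Their median was 0.30. Abcb1a, a multidrug P-glycoprotein, measured 15.4, 13.8 and 15.8 CPM in Mid and 29.5, 25.8 and 18.4 CPM in Old, with no overlap and an adjusted p of 0.0899 (edgeR). Abcb1b, its close paralog, measured 34.4, 34.5 and 35 CPM in Mid and 42.1, 46.0 and 50.1 CPM in Old (0.41 ± 0.11, adjusted p = 0.1). Abcg2, the main Hoechst pump of side population cells, had 0.17 ± 0.11 (adjusted p = 0.419). Reads of Abcb1a and Abcb1b may be split between the pair.

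Platelet genes did not move as a block. Of 42 megakaryocyte and platelet genes, 16 had a name, Selp rose (1 of 16, against 0.455% of all genes), and 11 of the 16 had a log2 fold change below 0, with a median of -0.31. Of the 16, 6 had an unadjusted p under 0.05 (edgeR), against 20.7% of all genes. DESeq2 called 3 that rose and 1 that fell, against 8.55% of all genes. The 5 members above 0 include Vwf (0.85) and Sdpr (0.49). Summed levels overlapped between the ages, at 382 to 433 TPM in Mid and 380, 599 and 606 TPM in Old. Ppbp, a platelet chemokine, measured 7.72, 7.64 and 1.22 CPM in Mid and 0.39, 0.297 and 0.77 CPM in Old (adjusted p = 0.0611, edgeR). Gp9, a subunit of the platelet von Willebrand receptor, measured 7.67, 9.78 and 8.96 CPM in Mid and 5.44, 6.5 and 7.11 CPM in Old (adjusted p = 0.161). All 7 named erythroid genes of 27 lay below 0 with a median of -0.62. None passed in edgeR, 1 had an unadjusted p under 0.05, and DESeq2 called 0, against 20.7% and 8.55% of all genes. The nearest was Epor, the erythropoietin receptor (-0.69 ± 0.25, adjusted p = 0.182).

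Inflammatory genes of the NF-kB list gave 2 that rose, Selp and Osmr, of 23 named among 51, against 0.455% of all genes, with a median of 0.23. The number that rose was 3 without Old replicate 1, 2 without Old replicate 2, and 0 without any other pool or in the model with all 9 samples. Ptgs2, the inducible prostaglandin synthase, measured 78.7, 51.7 and 75 CPM in Mid and 269, 141 and 148 CPM in Old, and its adjusted p was 0.0586 (edgeR). Tnfaip3, an inhibitor of NF-kB signalling, had 0.75 ± 0.22 (adjusted p = 0.126). None of 13 named interferon response genes passed in edgeR, and the median was 0.21. Of the 13, 2 had an unadjusted p under 0.05 and DESeq2 called 2, against 20.7% and 8.55% of all genes. Parp14 was nearest to the threshold (0.58 ± 0.13, adjusted p = 0.076, edgeR). None of 25 named cell cycle genes passed in edgeR, and 23 of them lay below 0, with a median of -0.26. Of the 25, 4 had an unadjusted p under 0.05 and DESeq2 called 1, against the same shares of all genes. The replication licensing genes Cdt1 (-0.36 ± 0.11) and Gmnn (-0.55 ± 0.17) had the smallest p-values there, at adjusted p-values of 0.14 and 0.143.

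The remaining lists held no gene that passed in edgeR. In those of the DNA damage, mitochondrial, polycomb, heat shock, DNA methylation, ribosome, myeloid and lymphoid lists, the numbers at an unadjusted p under 0.05 were 4, 4, 3, 1, 1, 2, 1 and 5, and DESeq2 called 2, 3, 0, 1, 0, 0, 0 and 3. These stand against 20.7% and 8.55% of all genes, so most are near or below the background. Among 24 named DNA damage and senescence genes, H2afx (-0.50 ± 0.12, adjusted p = 0.0847, edgeR) and Bax, a promoter of apoptosis (-0.55 ± 0.14, adjusted p = 0.0954), were nearest. Among 21 mitochondrial and oxidative stress genes, Hif1a (0.67 ± 0.16, adjusted p = 0.0859) and Gpx4, a lipid peroxidase (-0.60 ± 0.15, adjusted p = 0.0901), were nearest. Of 18 polycomb and chromatin regulators, 16 had a log2 fold change above 0, and the median was 0.19. Ezh2, the methyltransferase of polycomb complex PRC2, went the other way, at -0.38 ± 0.13 (adjusted p = 0.17). Of 11 heat shock and folding genes, Atf6, a sensor of endoplasmic reticulum stress, had 0.55 ± 0.11 (adjusted p = 0.0609). The medians of the other lists were -0.08 for 7 DNA methylation enzymes, 0.01 for 18 ribosome biogenesis genes, -0.20 for 13 myeloid genes and 0.00 for 12 lymphoid priming genes.

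Markers of lymphocytes differed between the pools. All 11 named T and NK cell markers, of 26 listed, had a log2 fold change above 0, from 1.40 to 3.26 with a median of 1.90. None passed the adjusted edgeR test, although all 11 had an unadjusted p under 0.05 and DESeq2 called 7, against 20.7% and 8.55% of all genes. Cd8a measured 1.05, 1.13 and 1.16 CPM in Mid and 13.3, 4.69 and 2.13 CPM in Old, and Cd3g measured 2.5, 3.4 and 1.83 CPM in Mid and 28.5, 9.09 and 3.49 CPM in Old. Old replicate 1 was highest and Old replicate 3 lowest of the Old pools for both. Summed over the 11 markers as TPM, a level per transcript length that sums to the same total in every pool, Mid pools had 18.6 to 20.4 and Old pools 29.6 to 136. None of the 11 was at 0 in any pool, and Ncr1, an NK cell receptor, was lowest, from 0.0568 CPM in Mid to 2.27 CPM in Old. In bulk samples, more cells of a type and more RNA per cell cannot be told apart. Without Old replicate 1 the median of the 11 was 1.16, and 1 marker, Cd8a, passed (1.62, adjusted p = 0.05).

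All 7 named B cell markers, of 20 listed, had a log2 fold change below 0 (median -2.08). None passed in edgeR, where 4 had an unadjusted p under 0.05, and DESeq2 called 1, against 20.7% and 8.55% of all genes. Mid replicate 3 was highest in each, as for Spib, a transcription factor of B cells, which measured 1.01, 3.77 and 14.9 CPM in Mid and 1.86, 1.25 and 1.55 CPM in Old. The summed markers had 3.33, 7.19 and 32.3 TPM in Mid and 4.47 to 4.7 in Old, and none was at 0. Without Mid replicate 3 the median was -0.58, and 2 of the 7 lay above 0. The part of lymphocyte RNA in the results for single genes was not tested. Without Old replicate 1, where T cell markers were highest, Itgax had 1.89, Selp 1.27, Osmr 1.54, Plat 1.91 and Gpr183 1.6 on the log2 scale, while Old replicate 2 still held 69.8 TPM of the T and NK cell markers. Without Mid replicate 3, where B cell markers were highest, Tnfrsf13c had -1.28 and Ebi3 -0.98.

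**Figure D4:**
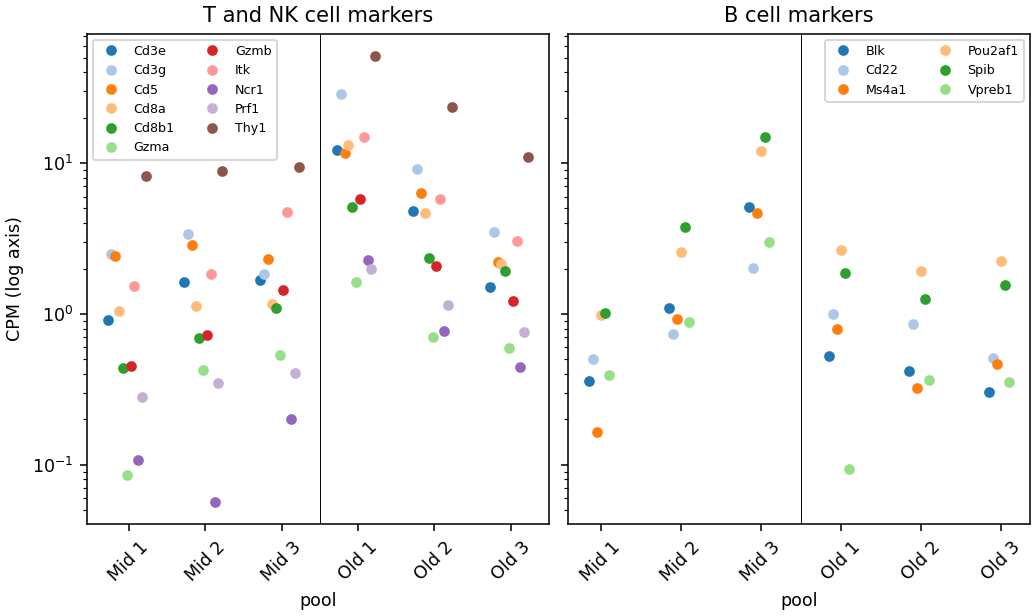
Points are the CPM (log axis) of the 11 named T and NK cell markers (left) and 6 of the 7 named B cell markers (right) in each of the 6 pools on the x axis, coloured by gene. T and NK cell markers peak in Old replicate 1, and B cell markers peak in Mid replicate 3.

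Of the other cell types the gate could hold, 9 named neutrophil and monocyte markers and 7 stromal and endothelial markers had medians of 0.17 and -0.34. None of either list passed in edgeR, with 1 and 0 at an unadjusted p under 0.05, and DESeq2 called 1 and 0. Over all genes these shares were 20.7% and 8.55%. The summed levels of each list overlapped between the ages, at 229 to 464 TPM in Mid and 311 to 541 in Old for the myeloid markers, and at 186 to 275 and 199 to 312 for the stromal markers.

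Single transcripts were then tested. None of 31953 transcripts passed in edgeR (0%), although 4118 had an unadjusted p under 0.05, and without Old replicate 1 there were 600. The balance between transcripts of one gene was tested separately. Of 8116 genes with at least 2 transcripts tested, 132 (1.63%) changed the shares of their transcripts (diffSpliceDGE of edgeR, Simes p adjusted to 0.05). None of these 132 passed in total level, and their median absolute log2 fold change of the total was 0.20. In 89 of them the transcript with the smallest p held a larger share in Mid and in 43 a larger share in Old. Many of these were minor transcripts at or near 0 at one age. The mean share was under 2% in Old for 78 and under 2% in Mid for 52.

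Vps18, a subunit of vesicle tethering complexes, had the clearest exchange among the 5 named genes with the smallest p. Its transcript uc008ltp.1 took 29.5%, 42.3% and 40.4% of the counts in Mid and 5.63%, 4.55% and 2.96% in Old. The other main transcript, uc008lto.2, had a mean of 61.8% in Mid and 95.1% in Old, while the gene total did not pass (log2 fold change -0.02, adjusted p = 0.95, edgeR). In Nbas, uc007nbm.2 took 8.79%, 10.8% and 4.78% in Mid and 0% in all Old pools. In Neo1, uc009pxj.1 took 10.9%, 17.3% and 14.2% of the gene's counts in Mid and 1.16%, 1.4% and 0.647% in Old pools. The opposite occurred in Wdr33, an mRNA 3' end processing factor, where uc008eiq.2 took 0% in all Mid pools and 5.2%, 5.21% and 3.43% in Old. In Pfkp, a glycolytic phosphofructokinase, uc007pkc.1 took 0.0657%, 0.16% and 0.0712% in Mid and 1.93%, 6.91% and 9.53% in Old. In Young pools, which entered no test, the mean shares were 7.06% (Vps18), 0% (Nbas), 3.5% (Neo1), 7.38% (Wdr33) and 5.68% (Pfkp). Each lay nearer to the Old mean than to the Mid mean, so these shares did not move steadily with age.

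Listed genes also changed in shares, chosen after their values were seen. In Vwf, the minor transcript uc012esw.1 took 33.1%, 33.3% and 30.4% of counts in Mid and 21.5%, 12.0% and 7.1% in Old (adjusted p = 0.0022, diffSpliceDGE). Young pools had 24.8%, 7.48% and 12.6%. In Abcb1a, uc008wkm.1 took 4.74%, 5.79% and 7.64% in Mid and 0% in Old and Young pools alike. In Dnm2, a dynamin, uc009oll.1 took 5.89%, 2.93% and 1.62% in Mid and 16.8%, 17.3% and 22.7% in Old. Its mean share in Young was 14.2%, nearer to Old than to Mid. In Prdm16, a transcription factor of stem cell maintenance, uc008wbw.1 took 0% in Mid and 12.0%, 10.9% and 11.3% in Old, with 81.0%, 0% and 3.39% in Young. The authors' program divides reads that fit several transcripts, so a share of 0% is an estimate and not a count of absent molecules. The share test took these estimates as counts, so its p-values leave out the uncertainty of that division. Without Old replicate 1, 643 genes changed shares.

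**Figure D5:**
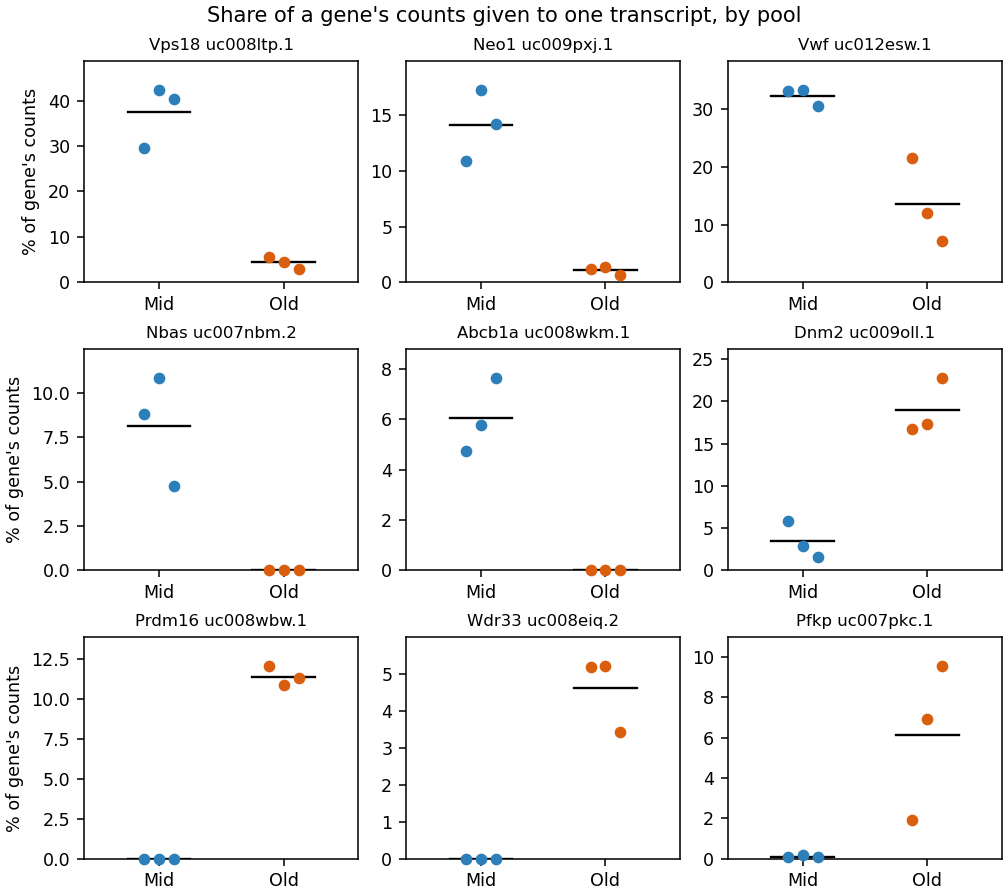
Each panel shows 1 transcript, with the percentage of its gene's counts on the y axis in the 3 Mid pools (blue) and the 3 Old pools (orange), and the group mean as a bar. In the panels of Vps18, Neo1, Vwf, Nbas and Abcb1a the Mid pools are higher, and in those of Dnm2, Prdm16, Wdr33 and Pfkp the Old pools are higher.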

How the data were processed

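RNA-seq of 3 Mid and 3 Old pools was analysed, grouped by the GEO labels. In the deposited files the authors gave, for each sequencing file, expected counts per gene cluster and per transcript, and a fraction of all transcripts, both in the layout of RSEM. The submitters' processing notes name RSEM 1.1.21, Bowtie 0.12.7, BWA 0.5.8, SAMtools and the build mm9. Here the expected counts of a pool's files were summed and rounded, and genes were filtered by filterByExpr, scaled by TMM and tested with edgeR 4.0.16 (R 4.3.3) by its quasi-likelihood test with Benjamini-Hochberg adjustment, at 0.05. DESeq2 1.42.0 was an alternative. CPM is a count scaled to a common library size. Transcript shares were tested with diffSpliceDGE. An exact permutation test of 3 against 3 pools cannot go below 0.1, so none was used. The gene test was tried on simulated counts with the same spread for every gene and no deviating pool. That setting differs from these data, so it gives no error rate for them.

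Gene names are inferences, since identifiers are UCSC transcripts. Lengths computed as count over fraction, for 26215 transcripts (86.6% within 0.1 bp of a whole number), were aligned in genome order with GENCODE genes on NCBIM37, keeping names whose posterior reached 0.9 and whose length differed by no more than 2 bp. A constant of 33 bp, chosen for the best match to annotated lengths, had been added to the computed lengths. This named 5188 clusters. With a further fixed number of bp added to every length and genome order kept (6 settings), 122 were named on average (2.35%).

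Members and gene lists were chosen with earlier results of these data known. Named are the 12 largest rises and falls with a log2 CPM of at least 1, every list member called, up to 4 members per list with the smallest p, genes of the methylation study, 4 called genes without a name, and the 5 genes with the smallest share p. Others are said to be chosen after their values were seen. The values of 1 list member are not reported here.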

Additional observations from a re-analysis of the deposited data

How the results depend on the processing

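Of the settings that used all 6 pools, those that scaled by DESeq2 size factors (90 genes called) or the upper quartile (79), required 10 counts in every sample (109), used only the earlier (83) or only the later run, or added a fold of 1.5 (98) kept the number of genes called within 1.5 times of 98. It was 149 with no filter, 10 in the model of all 9 samples, 1372 by the DESeq2 test and 2538 at an adjusted p of 0.2. The fit of the later run was not of a single run, because Old replicate 1 had no later run and entered with its earlier one. Leaving out 1 pool gave 6 to 561 genes and 0 to 600 transcripts, both highest without Old replicate 1. For transcript shares only Old replicate 1 was left out, which gave 643 genes. Of the genes with a name, 39 were called, 535 by the DESeq2 test, 3 in the model of all 9 samples, and 0 to 234 with 1 pool left out. The cause was not tested. Same-numbered pools did not deviate together from the mean of their age (correlations of -0.23, -0.24 and -0.13). The mean of 0.10 for other pairs is no separate comparison, because the deviations sum to 0 within an age. These values give no sign that the numbers pair the pools, but cannot settle it. With the replicate block 1 gene was called, and 0 with a name. Each setting was followed for the genes singled out by the naming rule, not for every list member. None of those called changed direction under any setting. Among those not called, direction changed for Emr1 (-0.073 to 0.77 over the fits without 1 pool), Gadd45b (-0.12 to 0.41), Pacsin2 (-0.12 to 0.051), Pou2af1 (-1.70 to 0.34) and Trim37 (-0.12 to 0.12). Total counts were 80747194 or more in each pool, and thinning to the smallest total gave 89 genes.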
